A study of Oncorhynchus mykiss with 24 samples.

Results

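Described here are the rainbow trout loci named grip2b and sybu, after zebrafish genes for a pair of scaffold proteins. They were taken as every row of the deposited count table whose symbol was grip2b or sybu, where the symbol was either the row's own identifier or the zebrafish gene that the authors' ortholog table pairs with it. The rule found 4 of 32765 rows, and all 4 were Oncorhynchus mykiss (rainbow trout) loci: LOC110492486 and LOC110531951 for grip2b, and LOC110518767 and LOC110489853 for sybu. None of the 9992 rows of Salvelinus fontinalis (brook trout) carried either symbol. The ortholog table lists an S. fontinalis partner for each of the 4 loci, but these partners had no row in the count table. The ortholog table pairs LOC110492486 with grip2b and, in a separate entry, also with grip2a, and LOC110531951 with grip2b alone. The name grip2b of LOC110492486 therefore rests on that table. Whether the 2 grip2b loci are copies of the same gene was not tested. All 4 loci are annotated as protein coding and all 4 passed edgeR's filter on low counts.

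The study measured RNA in a trout hybrid, made by fertilizing O. mykiss eggs with S. fontinalis sperm, by TOMO-seq, in which an egg or embryo is cut along an axis and each section is sequenced on its own. The animal part of an egg is section A and its vegetal part is section B. Each section has 2 libraries at 0 hours post fertilization (hpf), 3 at 1 hpf, 3 at 1 day post fertilization (dpf), an early blastula of about 32 to 64 cells, and 2 at 3 dpf, a mid-blastula of about 1000 cells. For 0 hpf the labels give an egg that is not fertilized and also one just fertilized, and for 1 hpf they give the 1-cell stage and also early cleavage. The count table holds 20 of the 24 labelled libraries, and the third replicates of 0 hpf and 3 dpf were not analysed here.

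In fish and frogs the egg's vegetal pole stores maternal RNAs and proteins that later set the dorsal side and the germ line, and many of these are moved along microtubules after fertilization. GRIP proteins carry several PDZ domains and tether membrane receptors and vesicles to kinesin motors. In zebrafish, grip2a is the gene disrupted in the maternal-effect mutant hecate, whose embryos fail to form dorsal structures. Syntabulin, the product of sybu, links kinesin-1 to its cargo, and in zebrafish it is the gene behind tokkaebi, another maternal-effect mutant without dorsal structures. Its RNA lies at the vegetal pole of the zebrafish egg.

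Library totals ran from 5011274 to 9986001 counts. Levels are given as CPM, the counts of a locus relative to the total of its library, with totals adjusted by edgeR's TMM factors and without correction for transcript length, so they compare libraries of a locus and not loci with each other. S. fontinalis genes took 22.4% and 24.0% of the counts of section A at 3 dpf, against 0.927% to 1.08% in the other 18 libraries, and the median log2 fold change of the 22724 O. mykiss genes tested, section A over section B at 3 dpf, was −0.33 (−0.05 with DESeq2's size factors). Of 16 egg and oocyte marker symbols 12 had O. mykiss rows. These rows summed to 1735 to 2346 CPM in section A libraries and 2501 to 3770 CPM in section B libraries. Among those markers, buc, dazl and ddx4 also stand in the list tied to vegetal localization below. No O. mykiss row carried any of 12 ovarian follicle or 11 blood marker symbols. As 14833 of the 32765 rows have no symbol, a symbol without a row does not show that its RNA was absent. The sperm markers with a row (2 of 10, ropn1l and dnah1) summed to 12.6 to 31.6 CPM in section A and 10.8 to 33.6 CPM in section B. The single liver and yolk marker with a row (1 of 8, tfa) had 5.75 to 17 CPM in section A and 16.2 to 36.8 CPM in section B. The part of the egg marker and tfa differences in the results that follow was not tested.

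RNA of all 4 loci took a larger part of the counts in the vegetal section at every stage. In CPM, each locus was lower in section A than in section B of the same egg in 10 of 10 eggs. The smallest difference was that of LOC110531951 in replicate 1 at 3 dpf, a log2 ratio of −0.29. The median log2 fold change of O. mykiss genes at that stage was −0.33, so relative to it this egg showed no lower level in section A. The test was edgeR's quasi-likelihood test, with p-values adjusted over all 32502 genes of both species by the Benjamini-Hochberg method and a threshold of 0.05. It called 3 of the 4 loci lower in section A at 0 hpf, where 3.96% of O. mykiss genes were called lower. It called 4 at 1 hpf (background 11.8%), 4 at 1 dpf (13.8%) and 3 at 3 dpf (27.1%). With the egg as a block in the model, all 4 loci were called lower at each of the 4 stages, where 7.16%, 17.5%, 19% and 33% of O. mykiss genes were. Every section A library lay below every section B library for 4, 3, 4 and 4 of the 4 loci in stage order, as it did for 31.9%, 23.4%, 19.4% and 39.7% of O. mykiss genes. At 1 dpf and 3 dpf, when the embryo has many cells, fewer cells holding an RNA and less RNA per cell cannot be told apart in a bulk section. RNA inside cells and RNA outside them cannot be told apart either.

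**Figure D1:**
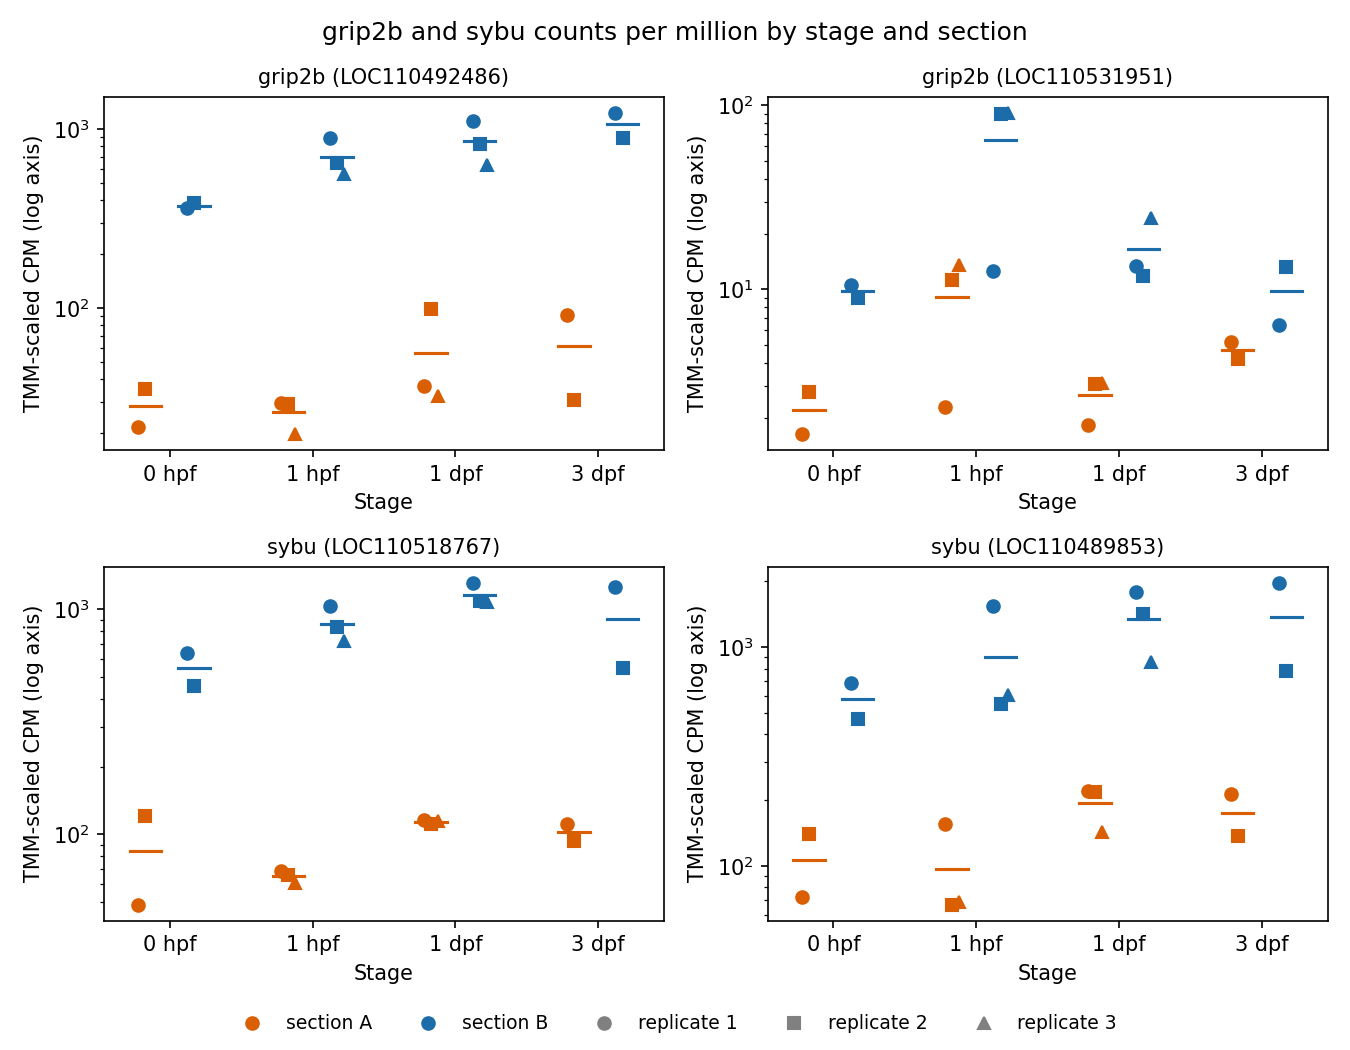
CPM (TMM-scaled, log axis) of the 4 loci in each library, by stage, with section A left of section B. Points are libraries, marked by replicate, and horizontal bars are group means. Each locus is lower in section A at every stage, and LOC110531951 stands apart in replicates 2 and 3 of both sections at 1 hpf.

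The grip2b locus LOC110492486 had the steepest difference between the sections of the 4 loci at each stage. At 0 hpf it had 21.8 and 35.3 CPM in section A, against 362 and 384 CPM in section B. Means were 28.5 ± 9.58 CPM in section A and 373 ± 15.3 CPM in section B (SD, n = 2 each), a log2 fold change of −3.71 ± 0.53 (SE, edgeR, adjusted p = 0.000352). Both eggs of 0 hpf had far less of this RNA in the animal part, and the sections did not overlap. At 1 hpf section A had 29.6, 29.1 and 19.8 CPM, against 887, 647 and 557 CPM in section B. The log2 fold change was −4.73 ± 0.45 (SE, n = 3 each, edgeR, adjusted p = 8.57e-07), rank 17 from the lowest among 22724 O. mykiss genes. The sections were again separate, with no section A library above 29.6 CPM.

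At 1 dpf LOC110492486 had 36.9, 99.3 and 32.2 CPM in section A, against 1100.3, 829 and 631 CPM in section B. Section A of replicate 2 stood above the other two, and the difference between sections was −3.92 ± 0.44 on the log2 scale (SE, n = 3 each, edgeR, adjusted p = 4.41e-06). At 3 dpf section A had 91.3 and 30.8 CPM, against 1233 and 895 CPM in section B. The log2 fold change was −4.12 ± 0.54 (SE, n = 2 each, edgeR, adjusted p = 1.22e-05), or −3.79 relative to the median O. mykiss gene. Without replicate 1 of section A it was −5.11 and still passed (adjusted p up to 0.000373 when a library of this stage was left out). Within single eggs the level in section B was 8.34 to 29.9 times that in section A. This locus ranked 40, 17, 47 and 43 from the lowest log2 fold change among O. mykiss genes at 0 hpf, 1 hpf, 1 dpf and 3 dpf.

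The other grip2b locus, LOC110531951, showed a smaller difference between sections and a wide spread between eggs at 1 hpf. At 0 hpf it had 1.63 and 2.77 CPM in section A (16 and 27 counts), against 10.5 and 9.04 CPM in section B (84 and 95 counts). The log2 fold change of −2.14 ± 0.80 (SE, n = 2 each) did not pass the test over all groups (edgeR, adjusted p = 0.195). The sections did not overlap, with section A the lower, as was so for 31.9% of O. mykiss genes at this stage. In the fit with an egg block the log2 fold change was −2.15 and passed (edgeR, adjusted p = 0.000254). At 1 hpf replicates 1, 2 and 3 had 2.30, 11.2 and 13.6 CPM in section A, against 12.6, 89.8 and 91.4 CPM in section B. Replicates 2 and 3 were far above replicate 1 in both sections, and replicate 3 of section A exceeded replicate 1 of section B. Within each of these eggs section A was still the lower, and the log2 fold change was −2.83 ± 0.62 (SE, n = 3 each, edgeR, adjusted p = 0.00292). Without both sections of replicates 2 and 3, a choice made after seeing their levels that left 1 library a section at that stage, it was −2.43 (edgeR, adjusted p = 0.0764).

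At 1 dpf LOC110531951 had 1.83, 3.06 and 3.09 CPM in section A, against 13.3, 11.9 and 24.4 CPM in section B. It was lower in section A by a log2 fold change of −2.62 ± 0.66 (SE, n = 3 each, edgeR, adjusted p = 0.00719). At 3 dpf it had 5.20 and 4.20 CPM in section A (28 and 20 counts), against 6.38 and 13.3 CPM in section B (35 and 80 counts). The gap was narrow in replicate 1 and wider in replicate 2, and the log2 fold change of −1.07 ± 0.79 (SE, n = 2 each) did not pass the test (edgeR, adjusted p = 0.27). In the fit with an egg block it was −0.996 and passed (edgeR, adjusted p = 0.0235). Relative to the median O. mykiss gene at 3 dpf the value was −0.74. The level of section B within an egg was 1.23 to 7.999 times that of section A over the 10 eggs.

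A split of the 1 hpf eggs of more than 4-fold, like that of LOC110531951, was also seen in a small part of the other O. mykiss genes. The 4-fold cut was not planned. Without a cut, the split was broader. Over O. mykiss genes, deviations from the group mean correlated at 0.367 and 0.402 between replicates 2 and 3 of unlike sections. Replicate 1 correlated with replicates 2 and 3 of the other section at −0.596 to −0.53. Of 22527 O. mykiss genes with a mean of at least 0 on the log2 CPM scale, 141 were more than 4-fold higher in replicates 2 and 3 than in replicate 1 in both sections, and 156 were more than 4-fold lower (0.5 CPM added to each level). Those 141 genes, LOC110531951 among them, are 0.626% of the genes compared. For the sybu locus LOC110489853 the same eggs stood on the other side, by less than 4-fold. Replicates 2 and 3 of section B had 552 and 605 CPM, and replicate 1 had 1549.8 CPM. The labels give no batch, female or date for the eggs, so what the eggs of a stage share was not tested.

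The sybu locus LOC110518767 was lower in section A at every stage. At 0 hpf it had 48.8 and 121 CPM in section A, against 641 and 457 CPM in section B, which gave a log2 fold change of −2.70 ± 0.37 (SE, n = 2 each, edgeR, adjusted p = 0.000225). At 1 hpf it had 69.1, 65.7 and 61.0 CPM in section A, against 1038, 833 and 724 CPM in section B. Section A varied by 4.06 CPM (SD) around a mean of 65.3 CPM, and section B by 159 CPM around 865 CPM. The log2 fold change was −3.73 ± 0.31 (SE, n = 3 each, edgeR, adjusted p = 2.59e-07). At 1 dpf section A had 116, 111 and 115 CPM, against 1313, 1093 and 1077 CPM in section B, which gave −3.35 ± 0.31 (SE, n = 3 each, edgeR, adjusted p = 6.59e-07). At 3 dpf section A had 111 and 93.6 CPM, against 1261 and 549.8 CPM in section B, which gave −3.14 ± 0.38 (SE, n = 2 each, edgeR, adjusted p = 5.14e-06), or −2.82 relative to the median O. mykiss gene. The highest section A library, at 121 CPM, lay far below the lowest section B library, at 457 CPM.

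The second sybu locus, LOC110489853, had the same direction. At 0 hpf it had 72.3 and 141 CPM in section A, against 686 and 473 CPM in section B, which gave a log2 fold change of −2.44 ± 0.57 (SE, n = 2 each, edgeR, adjusted p = 0.0167). This call was lost without replicate 1 of section A (−2.04, adjusted p = 0.372), without replicate 1 of section B (−2.15, adjusted p = 0.21) and without replicate 2 of section A (−3.001, adjusted p = 0.054). At 1 hpf section A had 156, 66.9 and 68.8 CPM, against 1549.8, 552 and 605 CPM in section B. Replicate 1 was the highest in both sections, and the sections did not overlap (log2 fold change −3.21 ± 0.48, SE, n = 3 each, edgeR, adjusted p = 9.79e-05). At 1 dpf section A had 221, 218 and 143 CPM, against 1791, 1413 and 853 CPM in section B (−2.80 ± 0.47, SE, n = 3 each, edgeR, adjusted p = 0.000266). At 3 dpf section A had 214 and 137 CPM, against 1971 and 777 CPM in section B (−2.97 ± 0.58, SE, n = 2 each, edgeR, adjusted p = 0.000466), or −2.64 relative to the median O. mykiss gene. At 1 hpf, 1 dpf and 3 dpf the egg highest in section B was also the highest in section A, unlike at 0 hpf. Within an egg the level in section B was 3.36 to 9.92 times that in section A.

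**Figure D2:**
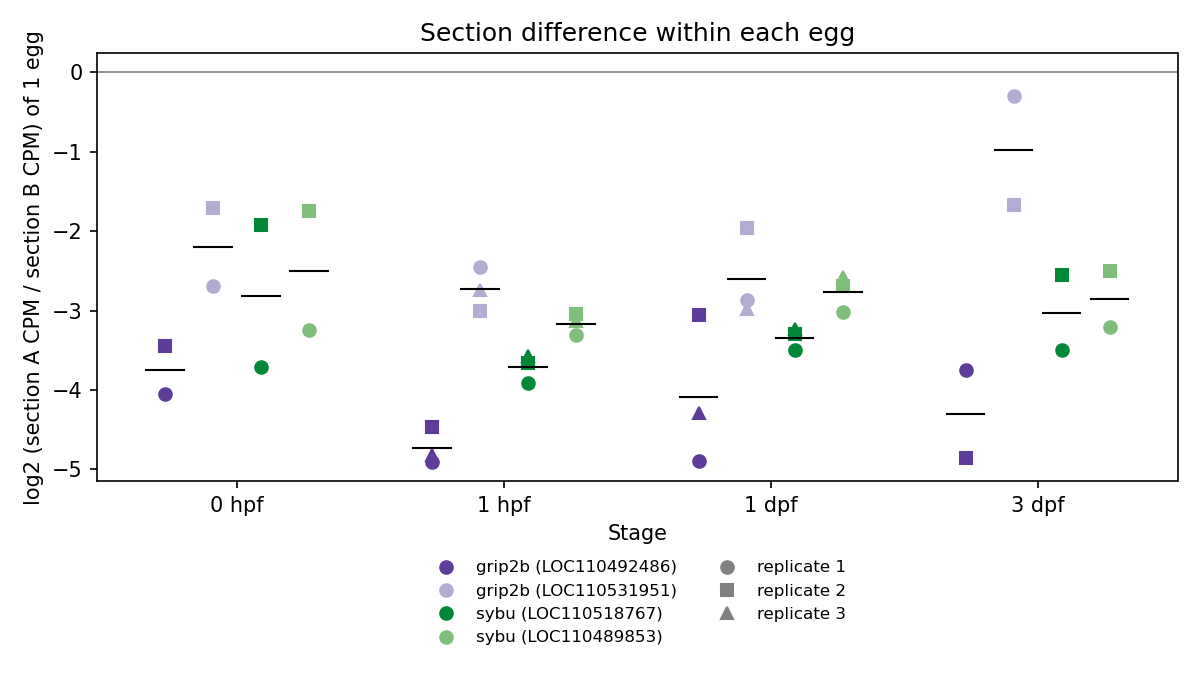
Log2 ratio of section A to section B CPM within each egg, for the 4 loci by stage. Points are eggs, marked by replicate, black bars are means over the eggs of a stage, and the grey line is at 0. All 40 values lie below 0, those of LOC110492486 between −4.90 and −3.06 and the one nearest 0 at −0.29 for LOC110531951 in replicate 1 at 3 dpf. The median log2 fold change of O. mykiss genes at 3 dpf, section A over section B, was −0.33.

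edgeR's biological coefficient of variation between libraries of a group was 0.336 for LOC110492486, 0.507 for LOC110531951, 0.248 for LOC110518767 and 0.374 for LOC110489853. The median over O. mykiss genes was 0.263, and 86.1% of O. mykiss genes varied less than LOC110531951.

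Ordered by mean level, all section A groups lay below all section B groups for each locus. For LOC110492486 the order within section B was 0 hpf (373 ± 15.3 CPM, n = 2), 1 hpf (697 ± 170 CPM, n = 3), 1 dpf (853 ± 236 CPM, n = 3) and 3 dpf (1064 ± 239 CPM, n = 2). The libraries of 0 hpf did not overlap with those of 1 hpf, and each later neighbour overlapped. The share of all genes without overlap between stages was not counted. Between 0 hpf and 1 hpf in section B, LOC110492486 did not pass the test (edgeR, adjusted p = 0.348). Within section A its means were 28.5 ± 9.58, 26.2 ± 5.55, 56.1 ± 37.5 and 61.1 ± 42.8 CPM in stage order (SD), and all neighbours in the order of levels overlapped. LOC110531951 had its highest means at 1 hpf in both sections, with 9.06 ± 5.97 CPM in section A and 64.6 ± 45.0 CPM in section B (SD, n = 3 each). In section B its other means were 9.79 ± 1.06 CPM at 0 hpf, 16.5 ± 6.81 CPM at 1 dpf and 9.85 ± 4.91 CPM at 3 dpf (SD). In its order of levels the single pair of neighbours without overlap was section A at 3 dpf (4.70 ± 0.709 CPM) over section A at 1 dpf (2.66 ± 0.719 CPM). That pair did not pass the test (edgeR, adjusted p = 0.399).

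For LOC110518767 the means in section B were 549 ± 130, 865 ± 159, 1161 ± 132 and 905 ± 503 CPM at 0 hpf, 1 hpf, 1 dpf and 3 dpf (SD). In section A they were 84.7 ± 50.8, 65.3 ± 4.06, 114 ± 2.64 and 102 ± 12.5 CPM (SD). Section B at 0 hpf overlapped with neither neighbour in its order of levels, section A at 1 dpf below it and section B at 1 hpf above it. The share of all genes with such gaps was not counted, and 1 hpf over 0 hpf in section B did not pass (edgeR, adjusted p = 0.345). For LOC110489853 the means in section B were 579 ± 150, 902 ± 561, 1352 ± 471 and 1374 ± 844 CPM (SD), and all neighbours in this order overlapped. In section A they were 106 ± 48.3, 97.3 ± 51.0, 194 ± 44.3 and 176 ± 54.5 CPM (SD). Means of both sybu loci were higher at 1 dpf than at 0 hpf in both sections, a pair of stages that was not tested.

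Later stages were compared with earlier ones within each section. edgeR called 0 of the 4 loci between stages in either section. In section A, where 0%, 0%, 34.8% and 29.7% of O. mykiss genes were called for 1 hpf over 0 hpf, 1 dpf over 1 hpf, 3 dpf over 1 dpf and 3 dpf over 0 hpf, the loci at an unadjusted p under 0.05 numbered 1, 4, 0 and 1. At that unadjusted threshold stood 10.5%, 8.05%, 40.9% and 36.8% of O. mykiss genes. Of the 4 loci for 1 dpf over 1 hpf, 3 were higher and LOC110531951 was lower (log2 fold change −1.75). In section B, where 0.0044%, 0%, 0% and 0.255% were called, 1, 1, 0 and 2 loci stood at an unadjusted p under 0.05, beside 17.5%, 8.56%, 6.01% and 13.4% of O. mykiss genes. DESeq2 called 1 locus for 3 dpf over 0 hpf in section A, where it called 27.6% of O. mykiss genes, and 1 for 1 hpf over 0 hpf in section B, where it called 4.96%. The locus called by DESeq2 in section A was LOC110492486. Its log2 fold change was 1.10 ± 0.50 (SE) in edgeR (adjusted p = 0.0773) and 1.40 in DESeq2 (adjusted p = 0.0186), and it was 1.42 in edgeR with TMM factors from the O. mykiss genes alone (adjusted p = 0.0275). Relative to the median O. mykiss gene it was 1.39, and without replicate 1 of section A at 3 dpf it was 0.11 (edgeR, adjusted p = 0.902), and without replicate 2 it was 1.68 and passed (edgeR, adjusted p = 0.0167). In section B the log2 fold change of the same locus, 3 dpf over 0 hpf, was 1.51 ± 0.48 (SE) and did not pass (edgeR, adjusted p = 0.217).

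The locus called by DESeq2 in section B was LOC110531951, for 1 hpf over 0 hpf. Its log2 fold change was 2.72 ± 0.73 (SE) in edgeR (adjusted p = 0.138) and 2.75 in DESeq2 (adjusted p = 0.009). Without replicate 1 of section B at 1 hpf, the lowest, it was 3.21 and passed (edgeR, adjusted p = 0.0426). Without both sections of replicates 2 and 3, left out because they were seen to be high, it was 0.36 (edgeR, adjusted p = 0.877). For 1 dpf over 1 hpf in section B the same locus had −1.97 ± 0.60 (SE, edgeR, adjusted p = 0.449), and −2.45 without replicate 1 of section B at 1 hpf (edgeR, adjusted p = 0.0355).

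The difference between the sections was compared between stages with an interaction term. edgeR called 0 of the 4 loci for 1 hpf minus 0 hpf, 1 dpf minus 1 hpf, 3 dpf minus 1 dpf and 3 dpf minus 0 hpf, where it called 0%, 0%, 15.6% and 12.8% of O. mykiss genes, and DESeq2 called 0 as well. At an unadjusted p under 0.05 there was 1 locus, LOC110518767, whose section difference at 1 hpf minus that at 0 hpf was −1.03 ± 0.45 on the log2 scale (SE, edgeR, adjusted p = 1). At that unadjusted threshold stood 2.24%, 1.27%, 27.2% and 24.8% of O. mykiss genes in the 4 comparisons. For LOC110531951 the section difference at 3 dpf minus that at 1 dpf was 1.56 ± 1.02 (SE, edgeR, adjusted p = 0.342). In the fit with an egg block it was 1.59 ± 0.48 (SE) and passed (edgeR, adjusted p = 0.0175), as did 24.1% of O. mykiss genes. Within eggs its log2 ratio of section A to section B was −0.29 and −1.67 at 3 dpf, and −2.87, −1.96 and −2.98 at 1 dpf. For LOC110492486, LOC110518767 and LOC110489853 the section difference at 3 dpf minus that at 1 dpf was −0.19 ± 0.62, 0.20 ± 0.45 and −0.17 ± 0.70 (SE, edgeR).

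Loci of the same symbol can be compared within a library by the share that a locus takes of the counts of its pair. This share needs no scaling between libraries. It depends on the lengths of both transcripts and on how reads common to both loci were counted. That counting is not given in the sources used here, so only differences of the share between libraries are read. LOC110531951 took a larger share of the grip2b counts in section A than in section B in 10 of 10 eggs. In section A the share ran from 2.99% to 40.8% with a median of 7.25%, and in section B from 0.515% to 14.1% with a median of 1.89%. The log2 ratio of LOC110531951 to LOC110492486 counts was 2.11 higher in section A than in section B, averaged over stages (exact permutation test of section labels within stage, two-sided, p = 0.00111, adjusted p = 0.00222 over the 2 genes). As the reads were assigned, the counts of the 2 grip2b loci therefore differed in how steeply they fell off toward the animal side, beyond the spread between libraries.

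By egg, the share of LOC110531951 at 0 hpf was 6.99% and 7.28% in section A, against shares of 2.83% and 2.30% in section B. At 1 hpf it was 7.22%, 27.8% and 40.8% in section A, against shares of 1.40%, 12.2% and 14.1% in section B of the same eggs. At 1 dpf it was 4.73%, 2.99% and 8.77% in section A, against shares of 1.20%, 1.42% and 3.72% in section B. Replicates 2 and 3 at 1 hpf had the highest shares in both sections. At 3 dpf the share was 5.38% and 12.0% in section A, against shares of 0.515% and 1.47% in section B. The highest share rested on 120 of 294 counts (95% exact binomial Clopper-Pearson interval 35.1% to 46.7%), and the lowest on 35 of 6800 counts (0.359% to 0.715%). These intervals cover counting error only.

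The split between the sybu loci changed by a smaller log2 ratio between the sections. LOC110489853 took 50.4% to 69.3% of the sybu counts in section A, with a median of 59.6%, and 39.8% to 61.0% in section B, with a median of 54.0%. Its share was higher in section A in 10 of 10 eggs, and the log2 ratio of LOC110489853 to LOC110518767 counts was 0.41 higher in section A (exact permutation test within stage, two-sided, p = 0.0161, adjusted p = 0.0161). At 0 hpf the share was 59.7% and 53.8% in section A, against shares of 51.7% and 50.9% in section B. At 1 hpf it was 69.3%, 50.4% and 53.0% in section A, against shares of 59.9%, 39.8% and 45.5% in section B. Replicate 1 had the highest share in both sections at this stage. At 1 dpf the share was 65.6%, 66.3% and 55.5% in section A, against shares of 57.7%, 56.4% and 44.2% in section B, with replicate 3 the lowest in both. At 3 dpf it was 65.8% and 59.5% in section A, against shares of 61.0% and 58.6% in section B, the narrowest gap of the series in replicate 2.

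**Figure D3:**
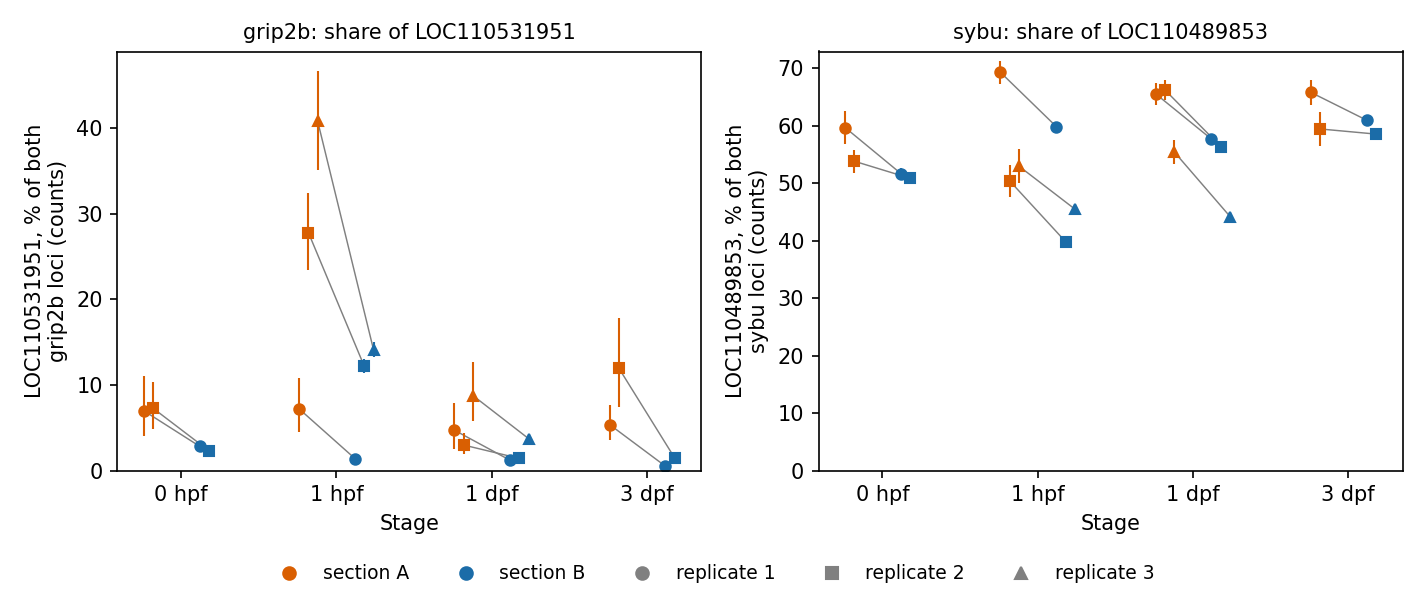
Share of LOC110531951 in the counts of both grip2b loci (left) and of LOC110489853 in the counts of both sybu loci (right), by stage, with section A left of section B. Points are libraries with 95% exact binomial intervals, marked by replicate, and grey lines join the sections of an egg. Every line falls from section A to section B, with shares up to 40.8% for LOC110531951 at 1 hpf and between 39.8% and 69.3% for LOC110489853.

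How reads common to both loci of a symbol were assigned is not given, and the likeness of their sequences was not examined. The split between loci is therefore uncertain. Each symbol was also tested on the summed counts of both loci, an alternative chosen after seeing the data. Summed grip2b was lower in section A by log2 fold changes of −3.64, −4.43, −3.89 and −4.02 in stage order (edgeR, adjusted p = 0.00021, 6.94e-07, 2.24e-06 and 7.43e-06). Summed sybu was lower by −2.56, −3.44, −3.03 and −3.03 (edgeR, adjusted p = 0.00217, 4.74e-06, 1.41e-05 and 5.14e-05). At 1 hpf summed grip2b had 35.2 ± 4.50 CPM in section A and 762 ± 127 CPM in section B, and summed sybu 163 ± 54.4 CPM in section A and 1768 ± 711 CPM in section B (SD, n = 3 each).

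A list of genes whose RNA or protein is tied to vegetal localization or germ plasm in fish or frogs was compared. Most of its loci were lower in section A from 1 hpf on. Of 33 O. mykiss rows of that list, which leaves out grip2b and sybu, the test found 2 higher and 19 lower at 1 hpf. Among all O. mykiss genes 1.45%, 12.5%, 14.3% and 15.2% were called higher in section A in stage order, beside the shares called lower given above. With the egg as a block 5.63%, 18%, 19.8% and 18.9% were called higher. At 3 dpf DESeq2, with other size factors, called 20.9% higher and 20.8% lower. The list's median log2 fold change was −1.09, against −0.03 for all O. mykiss genes. At 0 hpf 0 rows were higher and 13 lower (edgeR; 1 and 16 at an unadjusted p under 0.05, 1 and 14 in DESeq2, 2 and 14 with the egg as a block). At 0 hpf 7.62% of O. mykiss genes lay higher and 9.29% lower at an unadjusted p under 0.05, and DESeq2 called 3.95% and 5.54%. The list had a median of −0.54 at 0 hpf, against −0.02 for all O. mykiss genes. At 1 dpf 1 row was higher and 22 lower (median −1.08 against −0.01), and at 3 dpf 5 were higher and 20 lower (median −1.34 against −0.33).

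Some of these symbols likewise stand for several loci, given here side by side, whose difference from each other was not tested. At 1 hpf trim36, a ubiquitin ligase gene needed for vegetal microtubules in frogs, had −4.61 (LOC110525254) and −3.03 (LOC110535019). hwa, whose membrane protein sets the dorsal side in zebrafish, had −4.64 and −4.16 (LOC110509564), and dazl, which encodes an RNA-binding protein of germ cells, −3.29 and −1.81 (LOC110487980). celf1, another RNA-binding protein gene, had −2.95 (LOC110526187) and −1.51 (LOC110506308), and all of these 8 loci passed (edgeR, adjusted p from 2.05e-07 to 0.00131). buc, the organizer of the Balbiani body, had −2.08 (LOC110489830) and −1.26 in the loci that passed (adjusted p = 7.93e-06 and 2.92e-05) and −0.24 in LOC110535186, which did not (adjusted p = 0.52). The 2 rows that were higher were anln, a cytokinesis scaffold gene (2.07), and kif5ba, a kinesin-1 heavy chain gene (1.89, LOC110490020). The kif5ba locus is counted again in the kinesin-1 list.

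The list of GRIP partners was short, and its counts are given beside the same shares of all O. mykiss genes. No count row had the symbol grip1, which does not show that its RNA was absent. Of 18 rows of the list, the test found 0 higher and 2 lower at 1 hpf (edgeR; 2 and 2 at an unadjusted p under 0.05, 1 and 2 in DESeq2, 2 and 2 with the egg as a block), with a median of −0.01. At this stage 18.4% of O. mykiss genes lay higher and 18.1% lower at an unadjusted p under 0.05, and DESeq2 called 16.3% and 14.8%. The 2 lower rows were efnb3b, an ephrin B ligand gene whose relatives bind GRIP in mammals (LOC110500514, −1.56, adjusted p = 0.001), and ephb2b, an ephrin receptor gene (LOC110494446, −1.60, adjusted p = 0.00101). Both loci of gripap1, which encodes a GRIP-associated protein, had 0.46 (LOC110492587, adjusted p = 0.0638) and 0.11 (LOC110532303, adjusted p = 0.703). At 0 hpf and 1 dpf the counts were also 0 higher and 2 lower, with 0 and 2 at 0 hpf and 3 and 4 at 1 dpf at an unadjusted p under 0.05, and 0 and 2 at 0 hpf and 2 and 3 at 1 dpf in DESeq2. With the egg as a block they were 0 and 2 at 0 hpf and 2 and 4 at 1 dpf. At 1 dpf 20.1% of O. mykiss genes lay higher and 19.6% lower at an unadjusted p under 0.05, and DESeq2 called 17.5% and 17%. At 3 dpf 3 rows were higher and 7 lower, with a median of −0.84 against −0.33 for all O. mykiss genes.

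Kinesin-1 is the motor that syntabulin binds, and the list holds its chains and other cargo adaptors. Of 27 O. mykiss rows, which leave out sybu, the test found 9 higher and 4 lower at 1 hpf, with a median of 0.25. In stage order 1.45%, 12.5%, 14.3% and 15.2% of O. mykiss genes were called higher, and 3.96%, 11.8%, 13.8% and 27.1% lower. With the egg as a block the shares were 5.63%, 18%, 19.8% and 18.9% higher, and 7.16%, 17.5%, 19% and 33% lower. At 0 hpf 7.62% lay higher and 9.29% lower at an unadjusted p under 0.05, and DESeq2 called 3.95% and 5.54%. The heavy chain loci of kif5bb were higher by log2 fold changes of 1.77 (LOC110508336, adjusted p = 1.38e-05) and 0.97 (LOC110535558, adjusted p = 0.00555), and kif5ba by 1.89 (LOC110490020, adjusted p = 0.0452). The light chain genes klc1b (−1.09, LOC110525695) and klc3 (−1.14) were lower, and klc2 was higher by 1.27 (LOC110531564) and 0.72 (LOC110500431). trak1b, an adaptor for mitochondria, was lower by −2.97 (adjusted p = 0.00705), and ranbp2, a nuclear pore protein gene whose product binds kinesin-1 in mammals, was higher by 2.15, 2.22 and 2.71 at 3 loci (LOC110501703, LOC110520375 and LOC118943584). The list had 2 rows higher and 1 lower at 0 hpf (6 and 1 with the egg as a block), 6 and 4 at 1 dpf (11 and 5 with the block) and 4 and 7 at 3 dpf, the last near the shares of all O. mykiss genes. Of 34 rows for dynein, the opposite motor, and its adaptors, 6 were higher and 10 lower at 1 hpf (10 and 11 with the block), 0 and 7 at 0 hpf (edgeR; 2 and 9 at an unadjusted p under 0.05, 0 and 7 in DESeq2), 5 and 10 at 1 dpf (9 and 11 with the block) and 6 and 15 at 3 dpf.

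**Figure D4:**
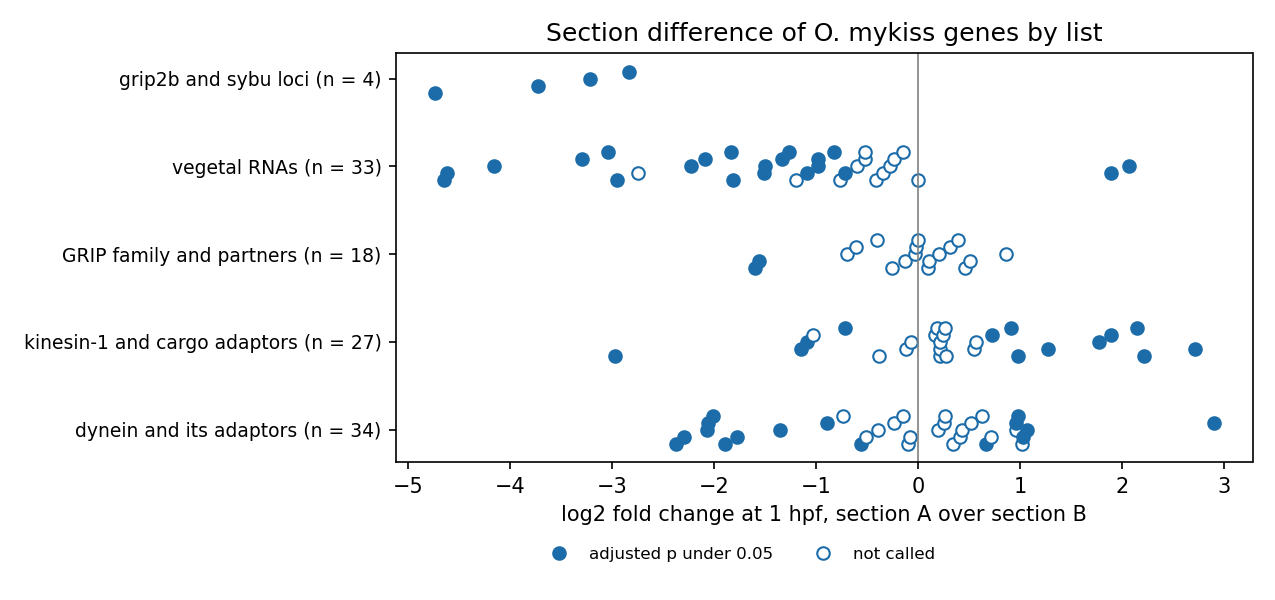
Log2 fold change at 1 hpf, section A over section B, of the O. mykiss loci of grip2b and sybu and of 4 gene lists. Each point is a locus, filled where edgeR's adjusted p was under 0.05. The 4 loci lie between −4.73 and −2.83, most loci of the list labelled vegetal RNAs lie below 0, and the kinesin-1 list has called loci on both sides.

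Likeness of pattern was measured by Pearson's r of log2 CPM over the 20 libraries, among 10875 genes with a symbol and at least the median level, as a description in which the points share libraries and sections. LOC110492486 was most like trim36 (LOC110525254, r = 0.996), abhd17aa, a depalmitoylase gene (r = 0.993), si:ch211-203d1.3 (r = 0.992) and zgc:123305 (r = 0.99). LOC110518767 was most like camk2g2, a calcium-dependent kinase gene (r = 0.992), tsc22d2 (r = 0.992), elovl6l, a fatty acid elongase gene (r = 0.991), and slain1a, a microtubule plus-end protein gene (r = 0.991). LOC110489853 was most like npas1 (r = 0.985), ipcef1 (r = 0.984), myo18ab, an unconventional myosin gene (r = 0.984), and ptpra, a receptor phosphatase gene (r = 0.983). LOC110531951 had lower values, with lamc1, a laminin chain gene (r = 0.913), si:ch211-234p6.5 (r = 0.903), mob4 (r = 0.887) and stbd1 (r = 0.874). Between the members r was 0.973 for LOC110492486 and LOC110518767, 0.966 for the sybu loci and 0.635 for the grip2b loci.

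The genes most like LOC110531951 had smaller differences between sections than it had. At 1 hpf section A over section B was −0.88 ± 0.18 for lamc1, −1.68 ± 0.46 for si:ch211-234p6.5 and −1.37 ± 0.27 for stbd1 (SE, edgeR, adjusted p = 0.00148, 0.0133 and 0.00112), and −0.94 ± 0.39 for mob4 (adjusted p = 0.115). Those most like LOC110492486 had −4.61 ± 0.41 for trim36, −4.53 ± 0.42 for abhd17aa, −4.57 ± 0.52 for si:ch211-203d1.3 and −3.61 ± 0.23 for zgc:123305 (SE, edgeR, adjusted p from 7.7e-08 to 6.04e-06). As all of these genes were picked for likeness over the same libraries, their section differences follow from that choice and are a description.

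No gene beside the 4 loci with a count row had a mean log2 ratio as low as theirs, on measures that differ as given below. Among the 5 protein-coding genes on each side of each locus in the RefSeq annotation USDA_OmykA_1.1, used here for neighbourhood alone, 26 of 40 had a row in the count table. Their mean log2 ratio of section A to section B within eggs ran from −0.95 to 1.87, with a median of 0.595. These ratios were taken with a prior count of 2, which draws ratios of low counts toward 0. The neighbours of the grip2b loci had 6 symbols at LOC110492486 and 4 at LOC110531951, of which they shared 0 as spelled. However, rpl32 stood next to LOC110492486 and rl32 next to LOC110531951, similar names that the exact match of symbols kept apart. The sybu loci shared 1, ebag9, which stood next to both, with mean log2 ratios of 0.06 beside LOC110518767 and 0.13 beside LOC110489853. The means of the 4 loci over 10 eggs, taken without a prior count, were −4.26 for LOC110492486, −2.24 for LOC110531951, −3.29 for LOC110518767 and −2.85 for LOC110489853.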

How the data were processed

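Libraries were directional and made after removal of ribosomal RNA, per the labels' protocols. HTSeq 2.0.4, STAR 2.7.11, DESeq2 and fastp 0.23.4 are named in the submitters' processing notes, without roles. The genome builds, the strand setting and the handling of multi-mapping reads are not given in the sources used here, so no coordinates are printed. The authors deposited raw counts per gene, which were used as they stand. Symbols came from row identifiers and the deposited ortholog table, and its pairings are gene names with no values.

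The main test was edgeR 4.0.16 (R 4.3.3) on 20 libraries and 8 groups, with 16 contrasts, TMM factors, the expression filter and the quasi-likelihood test, over 32502 genes (22724 O. mykiss). DESeq2 1.42.0 was an alternative. Locus ratios (0.5 added to each count) used all 14400 arrangements of section labels within stage in an exact permutation test (smallest p = 0.000139). Intervals are 95% Clopper-Pearson (SciPy 1.17.1), and the sources used here name no molecular identifiers. The edgeR fit was also run on simulated data with genes changed in section A at 1 hpf alone. The simulated sections were not paired by egg, so that run does not test the paired design.

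The series' design cuts each sample into both sections, so sections with the same stage and replicate number come from the same egg and are paired. Deviations of paired sections from their group means correlated at −0.01 at 0 hpf, 0.48 to 0.74 at 1 hpf, 0.39 to 0.66 at 1 dpf and 0.48 at 3 dpf. Sections of unlike number correlated at −0.596 to 0.402 at 1 hpf and −0.525 to 0.274 at 1 dpf. At 0 hpf the pairing rests on the design and not on these correlations. Groups hold 2 or 3 eggs, and p-values use the spread of all 20 libraries.

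The members and the gene lists were chosen with earlier results of these data known. Named genes were all members, the 4 genes most like each, and genes of the vegetal, GRIP and kinesin-1 lists called at 1 hpf with a log2 change over 1 in size; the gripap1 loci, the rows that did not pass and the kif5bb and klc2 loci with smaller changes were named after their values were seen.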

Additional observations from a re-analysis of the deposited data

Results flagged for a closer look

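The difference between sections of the grip2b locus LOC110531951 differed between stages in the fit with the egg as a block, in which section A over section B at 3 dpf minus the same at 1 dpf was 1.59 ± 0.48 on the log2 scale (SE, edgeR, adjusted p = 0.0175), smaller in size at 3 dpf. In the fit without the block it was 1.56 ± 1.02 (SE, edgeR, adjusted p = 0.342). At 3 dpf section A held 28 and 20 counts of this locus, and section B held 35 and 80. Both 3 dpf eggs had log2 ratios above those of the 3 eggs of 1 dpf.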

How the results depend on the processing

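Alternatives were RLE factors, library totals, TMM factors from O. mykiss genes, DESeq2, no filter, only the groups compared, a replicate block and leaving out each library, and after seeing the data, leaving out both sections of 1 hpf replicates 2 and 3 and summing the loci. The section differences of the 4 loci kept their direction under each. LOC110531951 at 0 hpf passed with the replicate block (−2.15, adjusted p = 0.000254) and with only the groups compared (−2.14, adjusted p = 0.00547), and at 3 dpf with the replicate block (−0.996, adjusted p = 0.0235). The summed counts of both grip2b loci passed at both stages (−3.64 and −4.02, edgeR, adjusted p = 0.00021 and 7.43e-06). At these stages LOC110531951 gave 5.38% to 12.0% of the summed counts in section A and 0.515% to 2.83% in section B. It was thus not itself tested by the sum. It did not pass at 1 hpf without replicates 2 and 3 of both sections (−2.43, adjusted p = 0.0764). Leaving out a library moved LOC110489853 at 0 hpf between −3.001 and −2.04 (adjusted p between 0.0252 and 0.372), and it passed in 1 of the 4 fits. The other called section differences passed without each library in turn, and at 3 dpf LOC110492486 lay between −5.11 and −3.54, LOC110518767 between −3.62 and −2.42 and LOC110489853 between −3.49 and −2.14. LOC110531951, not called there, lay between −1.498 and −0.44 at 3 dpf. These fits leave a section with 1 library, assumed to vary like the other groups. The replicate block changed no other section call. The number of genes called for section A over section B at 0 hpf was 1269, against 3037 with the egg as a block, 2257 in DESeq2 and 3467 with only the groups compared. It was 260, 353 and 731 without replicate 1 of section A, replicate 1 of section B and replicate 2 of section A. For 1 hpf over 0 hpf it was 1 in section B, against 1286 in DESeq2, 1611 with a block on the replicate number and 666 with only the groups compared (42 without section B replicate 1 of 1 hpf), and 0 in section A, against 349, 202 and 824. For 1 dpf over 1 hpf it was 0 in both sections, against 93 in section A and 64 in section B in DESeq2, and 22 and 192 without replicate 1 of that section at 1 hpf. For 3 dpf over 0 hpf in section B it was 58, against 896 in DESeq2, 411 with the number block and 0 with only the groups compared. It was 30 and 2 without section B replicate 1 or 2 of 0 hpf, and 2 and 656 without section B replicate 1 or 2 of 3 dpf. The change of the section difference was called for 6616 genes at 3 dpf minus 1 dpf and 5696 at 3 dpf minus 0 hpf, against 4010 for the first without replicate 1 of section A at 3 dpf, and 2837 to 3715 for the second without any of the 0 hpf libraries or replicate 1 of either section at 3 dpf. With only the groups compared the first was 4232. For 3 dpf over 1 dpf in section B it was 0, against 47 in DESeq2. Without replicates 2 and 3 of 1 hpf, the section count at 1 hpf was 1797, against 5926.

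Between stages 10 results passed only under an alternative. They concern LOC110492486 at 3 dpf over 0 hpf in section A (1.40 with RLE factors, 1.42 with O. mykiss factors, 1.40 in DESeq2, 1.68 without replicate 2 of section A at 3 dpf), LOC110531951 around 1 hpf in section B (2.75 in DESeq2, 3.21 and −2.45 without replicate 1 of section B at 1 hpf) and LOC110518767 in section A without replicate 2 of section A at 0 hpf (1.07, adjusted p = 0.0352). Across stages the numbers name samples only, and a block on them gave 1.08 for LOC110492486 (adjusted p = 0.0344) and 2.09 for LOC110531951 at 1 hpf over 0 hpf in section B (adjusted p = 0.0299). The log2 locus ratio, section A minus section B, stayed between 1.82 and 2.33 for grip2b and 0.317 and 0.49 for sybu when a library was left out, and was 1.70 and 0.48 without 3 dpf. A sign-flip test within eggs (replicate block, 1024 arrangements) gave p = 0.00195 for each (exact).

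With Spearman's rho, abhd17aa, lamc1, mob4, elovl6l and npas1 remained among the 4 genes most like a locus. The other genes named as most like a locus, trim36 among them, did not, so most of these names depend on the measure. Depth limits LOC110531951, with 13 to 28 counts in 8 of 10 section A libraries.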
